A study of Mus musculus with 2 samples.

Results

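Pi16-positive adventitial fibroblasts of the mouse aneurysm wall were taken from 2 single-cell RNA libraries by a rule on each cell's own counts of transcript molecules, counted through unique molecular identifiers (UMIs). A member had at least 200 detected genes and at most 20% mitochondrial UMIs, with at least 0.4% of its UMIs from Dcn and at least 2 UMIs of Pi16. Rbp4 and Fmod together, and Saa3 and Il33 together, each had to stay under 0.1% of the UMIs, Adipoq at 2 UMIs or fewer, Ptprc at 0 and Pecam1 at 1 or fewer. These limits kept out 2 other fibroblast states, adipocytes, leukocytes and endothelial cells. The rule found 1524 members among 17274 barcodes, of which 726 came from the inhibitor library (8149 barcodes) and 798 from the DMSO library (9125 barcodes). The values of these 9 genes chose the cells and are given below as a description.

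Both libraries (10x Chromium, 3′ chemistry) came from abdominal aortic aneurysm tissue of Apoe-/- mice, 12 weeks old, in which the aneurysm had been induced with angiotensin II. All mice in both groups therefore lacked apolipoprotein E and received angiotensin II, and no library from healthy aorta or from mice without angiotensin II was analysed here. One group was given an inhibitor and the other DMSO, a solvent, and each group had 1 library; the title initials were read as these groups from the series design. Which inhibitor it was, at what dose and when it was given, how many mice were pooled and from which aortic segment a cell came is not stated in the sources used here. With 1 library per group there was no test and no p-value, and every interval below covers counting error only, not variation between mice or libraries.

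The adventitia is the outer coat of the aorta, and its fibroblasts make the collagen-rich matrix that limits stretching of the wall. Fibroblasts with Pi16 (peptidase inhibitor 16, a secreted and membrane-anchored protein), Clec3b (tetranectin) and Mfap5 (a microfibril protein) have been described in many mouse organs as a shared, stem-like adventitial state that also carries Ly6a, Cd34 and Dpp4. Dcn encodes decorin, a small proteoglycan that coats collagen fibrils, and is made by fibroblasts in general. Angiotensin II acts on the aortic wall through type 1 receptors and is known for inducing matrix turnover and inflammation there.

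The protocol aimed at 5000 cells per library, fewer than the barcodes listed. Members were of unequal depth in the libraries. They held 8017373 UMIs in all, with a median of 9331.5 UMIs and 2999.5 genes per cell, in the inhibitor library. In the DMSO library they held 12531860 UMIs, with a median of 13822.5 UMIs and 3960 genes. Mitochondrial transcripts were a median of 2.28% of the UMIs of inhibitor members and 2.92% of those of DMSO members. The libraries shared 16 barcodes, none of which was a member in both. Scrublet scores marked 52 inhibitor members (7.16%) and 28 DMSO members (3.51%) as possible doublets at 1 threshold for both libraries. These cells were kept, and leaving them out is among the alternatives.

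The markers Clec3b and Mfap5 were found in most members. All members had Dcn and Pi16 by the rule, which placed Dcn at 14784 CPM in inhibitor and 15682 CPM in DMSO members and Pi16 at 2105 CPM in inhibitor and 2213 CPM in DMSO members (UMIs summed over members and scaled to 1000000, CPM). Pi16 lies on chromosome 17 at 29317680 to 29330593 and Dcn on chromosome 10 at 97479609 to 97518143 (GRCm38, GENCODE M21 gene spans). After thinning each cell to 2000 UMIs, which left 694 inhibitor and 766 DMSO members, Clec3b had at least 1 UMI in 88.0% of inhibitor members (85.4 to 90.4%) and 80.4% of DMSO members (77.4 to 83.2%; exact 95% Clopper-Pearson intervals). Among leukocytes, which should lack it, the share was 2.35% (inhibitor) and 2.71% (DMSO). Mfap5 was found in 88.9% of thinned inhibitor members and 86.7% of thinned DMSO members, and the fibroblast receptor gene Pdgfra in 45.1% of inhibitor members and 49.6% of DMSO members. Dpp4, a surface peptidase used to sort this state in other tissues, was found in few members. Its share was 1.59% of thinned inhibitor members and 3.52% of thinned DMSO members, under that in leukocytes of 6.47% (inhibitor) and 6.46% (DMSO). Whether leukocytes make Dpp4 themselves was not tested, so their share need not be a background level. The adventitial position of the cells was not measured.

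RNA of other cell types was present in the members and differed between the libraries. The 6 smooth muscle markers (Myh11, Acta2, Tagln, Cnn1, Myl9 and Smtn) summed to 4092 CPM in inhibitor members and 777 CPM in DMSO members, with none of the 6 at 0 in either. Much of this sat in few cells: without the 70 inhibitor members (9.64%) and 26 DMSO members (3.26%) in which Myh11 reached 0.05% of the UMIs, the sum was 758 CPM in inhibitor and 369.8 CPM in DMSO members. The 4 pericyte markers summed to 685 CPM in inhibitor members and 495 CPM in DMSO members. Of these, Rgs5 was at 294 CPM (inhibitor) and 86.3 CPM (DMSO), while Abcc9 was found in 74.2% of inhibitor and 77.9% of DMSO members. The 6 macrophage markers summed to 76.1 CPM in inhibitor members and 276 CPM in DMSO members. The 4 adipocyte markers summed to 1.37 CPM in inhibitor and 18.9 CPM in DMSO members, with Lep at 0 in both. The 5 Schwann cell markers summed to 109.9 CPM in inhibitor and 175 CPM in DMSO members. The 4 T cell markers summed to 0.748 CPM in inhibitor and 5.35 CPM in DMSO members, with Cd3e at 0 UMIs in both, which allows up to 0.374 CPM in inhibitor members and 0.239 CPM in DMSO members. Endothelial markers summed to 17.3 CPM (inhibitor) and 25.8 CPM (DMSO), and lymphatic ones to 10.9 CPM (inhibitor) and 9.34 CPM (DMSO). B cell, dendritic, neutrophil, erythroid and mesothelial markers each summed to under 6 CPM in both. The part of this RNA in the differences that follow was not tested. To limit it, a gene counted as measured only if its level in members was at least 20% of the highest among 5 other populations. These were smooth muscle cells, leukocytes, endothelial cells, adipocytes and Schwann cells, in the library where members held more. The 31 inhibitor adipocytes, under the minimum of 50 cells, were not used. RNA from other fibroblasts was not limited: Lcn2 was at 83.5 CPM in DMSO members and 781 CPM in DMSO fibroblasts with Saa3 and Il33 at or over 0.1%.

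Pi16-positive adventitial fibroblasts made up a like share of both libraries, but the Pi16-carrying cells around them did not divide alike. Members were 9.24% of the 7857 inhibitor cells passing the cell filter (8.61 to 9.90%) and 9.21% of the 8664 DMSO cells (8.61 to 9.84%). Of all cells with Dcn at 0.4% of UMIs, they were 32.6% (inhibitor) and 31.6% (DMSO). Before the limits on other genes, 1690 inhibitor cells and 1850 DMSO cells had enough Dcn and Pi16. Among these, Rbp4 (a retinol carrier) and Fmod (fibromodulin) reached their joint limit in 44.4% of inhibitor cells (42.0 to 46.8%) and 9.57% of DMSO cells (8.27 to 11.0%). The order was turned round for Saa3 (an acute-phase protein) and Il33 (an alarmin cytokine). They reached their limit in 10.6% of inhibitor cells (9.16 to 12.2%) and 36.7% of DMSO cells (34.5 to 38.9%). The like shares rested on both limits together. With no limit on Rbp4 and Fmod the share was 18.2% for the inhibitor and 10.9% for DMSO. With no limit on Saa3 and Il33 it was 11.1% for the inhibitor and 15.1% for DMSO, and with neither limit 20.3% for the inhibitor and 16.8% for DMSO. The shares also moved at equal depth. When the rule was applied to cells thinned to 4000 UMIs, members were 8.36% of inhibitor and 9.75% of DMSO cells.

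**Figure D1:**
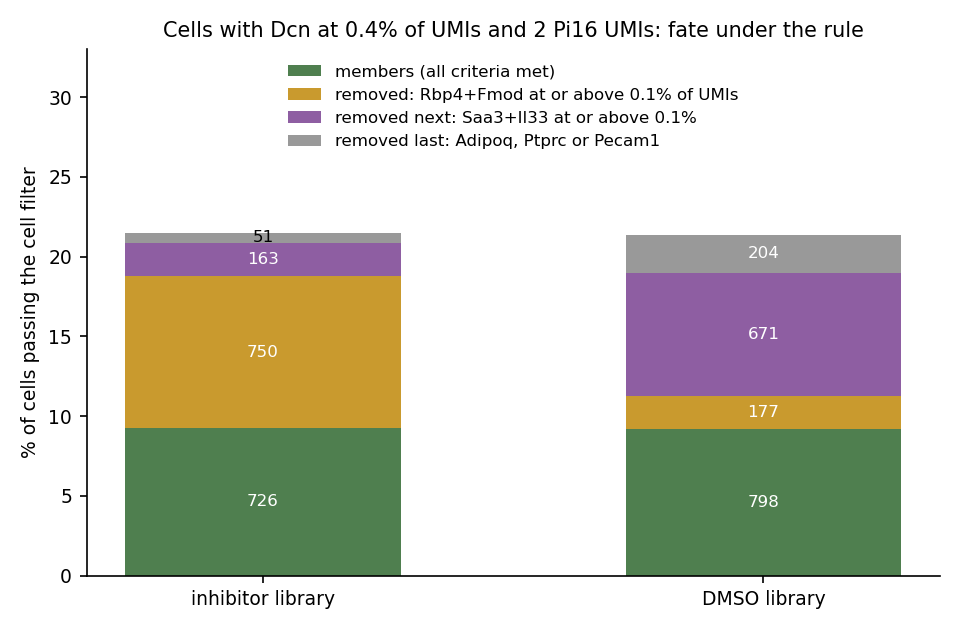
Cells with at least 0.4% of UMIs from Dcn and at least 2 Pi16 UMIs, as a percentage of all cells passing the cell filter, in the inhibitor library and the DMSO library (1 library each, so no error bars). Colours divide them into members and cells removed by the later criteria, with cell numbers printed in the bars: members are 726 inhibitor and 798 DMSO cells, Rbp4 and Fmod removed 750 inhibitor and 177 DMSO cells, and Saa3 and Il33 then removed 163 inhibitor and 671 DMSO cells.

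Cells lay close to several of these limits. Exactly 2 Pi16 UMIs were counted in 72 inhibitor members and 76 DMSO members, while 95 inhibitor and 114 DMSO cells met every other criterion with 1 Pi16 UMI. The median member held 11 Pi16 UMIs in the inhibitor library (quartiles 4 and 26, highest 215) and 14 in the DMSO library (quartiles 6 and 39, highest 468). Dcn was a median of 1.49% of UMIs in inhibitor members and 1.48% in DMSO members. Rbp4 and Fmod lay between 0.05 and 0.1% of UMIs in 172 inhibitor and 69 DMSO members, and between 0.1 and 0.2% in 226 inhibitor and 76 DMSO cells just outside. Saa3 and Il33 lay between 0.05 and 0.1% in 143 inhibitor and 284 DMSO members, and between 0.1 and 0.2% in 75 inhibitor and 215 DMSO cells outside. Under the limits these genes remained detectable: Rbp4 was at 202 CPM in inhibitor members against 61.3 CPM in DMSO members and Saa3 at 22.6 CPM in inhibitor and 62.3 CPM in DMSO members. Smooth muscle cells held Rbp4 as well, at 587 CPM (inhibitor) and 361 CPM (DMSO).

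Levels in members were compared as the ratio of CPM in the inhibitor library over the DMSO library, with an exact 95% interval from the counts, and log2 ratios were taken after adding 5 CPM. Of 6078 measured genes, 298 (4.9%) were at least 1.5-fold higher in inhibitor members and 408 (6.71%) at least 1.5-fold lower, with an interval that left out 1. The median log2 ratio over all measured genes was 0.012. These calls were 42.2% higher genes; the share was 53.7% (392 higher, 338 lower) with edgeR's TMM scaling and 56.7% (421 higher, 322 lower) with median-of-ratios size factors, so which direction held more genes depended on the scaling. The lists of genes described below were chosen with earlier results of these data known, and a list's counts are to be read beside the 4.9% and 6.71%. Genes of the rule were left out of every list. A gene called higher or lower in the text is past 1.5-fold with an interval that leaves out 1, and one called between the limits is not. Since 20 CPM was needed in 1 library only, some called genes count as measured only through the library where they are higher.

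**Figure D2:**
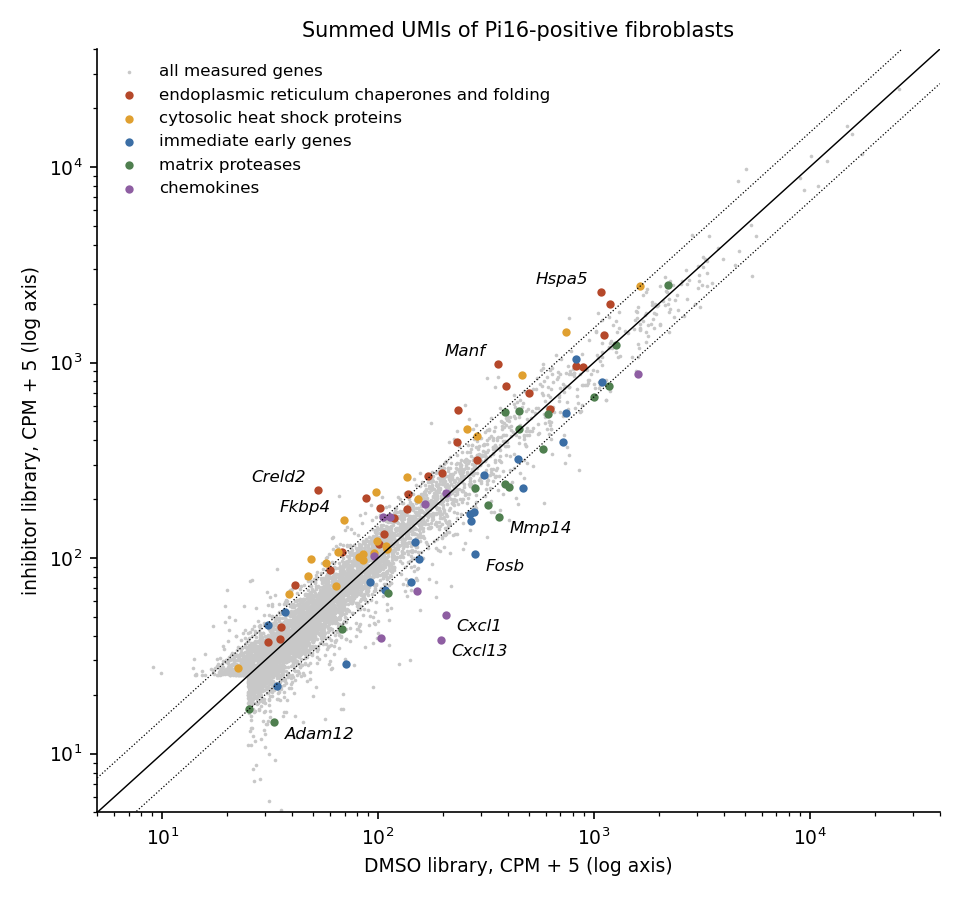
Levels of the 6078 measured genes in Pi16-positive fibroblasts, as CPM plus 5 in the DMSO library (x, log axis) and the inhibitor library (y, log axis), 1 point per gene. The solid line marks equal levels and the dotted lines a 1.5-fold difference; coloured points are members of 5 gene lists, with most chaperones of the endoplasmic reticulum and cytosol above the line and most matrix proteases, chemokines and immediate early genes below it.

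The genes furthest above and below in inhibitor members had unlike roles. Creld2, a stress-induced protein of the endoplasmic reticulum, was at 217 CPM in inhibitor and 47.9 CPM in DMSO members, a ratio of 4.54 (interval 4.14 to 4.99). Mthfd2, a mitochondrial enzyme of one-carbon folate metabolism, was at 63.7 CPM in inhibitor members against 14.9 CPM in DMSO members. Hhip, a hedgehog-binding antagonist, was at 52.1 CPM in inhibitor and 14.6 CPM in DMSO members. The flavin monooxygenase gene Fmo1 (484 CPM inhibitor, 171 CPM DMSO) and the matrix protein gene Tgfbi (825 CPM inhibitor, 314 CPM DMSO) were among them. The 12 highest ratios also held Nkain4, Gm4332, Manf, Herpud1, Cgref1 and Myoc, with ratios from 2.43 (Cgref1) to 3.46 (Nkain4). Myoc, at 82.7 CPM in inhibitor and 29.0 CPM in DMSO members, was found in 7.58% of inhibitor and 3.51% of DMSO members, and its ratio was 1.15 among members with 5000 to 20000 UMIs.

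At the other end, Cxcl13, a chemokine that draws B cells, was at 33.2 CPM in inhibitor members against 192 CPM in DMSO members, a ratio of 0.173 (interval 0.152 to 0.197). It lay in few cells, since 42 inhibitor members and 142 DMSO members held any. Aldh1a2, which makes retinoic acid, was at 12.0 CPM in inhibitor and 62.3 CPM in DMSO members, and Sfrp1, a secreted Wnt antagonist, at 185 CPM in inhibitor and 582 CPM in DMSO members. Efemp1 (fibulin-3, an elastic fibre protein) was at 67.4 CPM in inhibitor members against 214 CPM in DMSO members. The neutrophil-attracting chemokine gene Cxcl1 was at 46.3 CPM in inhibitor and 202 CPM in DMSO members and the pentraxin gene Ptx3 at 15.1 CPM in inhibitor and 63.6 CPM in DMSO members. Col6a5, Sbsn, Kng2, Ahsg, Emb and Pla1a completed the 12 lowest, with ratios from 0.185 (Col6a5) to 0.288 (Pla1a). Apart from Myoc, all genes among these highest and lowest stayed past 1.5-fold in the same direction in each of the 23 alternative ways of choosing, scaling and filtering. Alternatives that changed only the added constant, the low-value limit or the free RNA limit could not alter a gene's call, so they add nothing to this count.

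Many genes for folding proteins in the endoplasmic reticulum were higher in inhibitor members, with none lower. Secreted proteins such as collagens fold in this compartment with the help of chaperones, and when unfolded protein builds up there, the unfolded protein response raises transcription of these chaperones. Of 30 listed genes 28 were measured and 13 passed the 1.5-fold limit, all upward, around a median log2 ratio of 0.51. The chaperone Hspa5 (BiP), which binds unfolded chains and was named after its values were seen, was at 2283 CPM in inhibitor members against 1073 CPM in DMSO members, a ratio of 2.13 (interval 2.08 to 2.18). Manf, a stress-induced secreted factor, was at 972 CPM in inhibitor and 354 CPM in DMSO members, and Herpud1, part of the machinery that removes misfolded proteins, at 564 CPM in inhibitor and 229 CPM in DMSO members. Sdf2l1, a partner of BiP, was at 197 CPM in inhibitor members against 82.7 CPM in DMSO members. Hsp90b1, Dnajc3, Hyou1, Dnajb11, Selenos, Derl2, Fkbp2 and Pdia4 were the others past 1.5-fold, at ratios from 1.55 (Pdia4) to 1.94 (Dnajc3). The lectin chaperones Calr and Canx were not past it, with Calr at 949 CPM in inhibitor and 887 CPM in DMSO members and Canx at 312 CPM in inhibitor and 283 CPM in DMSO members, and the transcription factor gene Xbp1 was at 266 CPM in inhibitor members against 192 CPM in DMSO members; these were named after their values were seen. The counts held in members with 5000 to 20000 UMIs (13 higher, median 0.48) and without members rich in Myh11 (14 higher, median 0.55).

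Promoters of these genes are known for the endoplasmic reticulum stress response element (ERSE), in which CCAAT and CCACG stand 9 bases apart, and for its shorter form ERSE-II, in which ATTGG and CCACG stand 1 base apart; both are bound by NF-Y with ATF6. Both strands were searched in the window from 250 bases before to 50 after each RefSeq gene start (GRCm38.p6); the motifs were not searched with mismatches and do not overlap in the sequences shown. ERSE was found in 37 of 27025 genes with a promoter (0.137%) and in 8 of 24 measured genes of the list. ERSE was in 4 of 11 that were past 1.5-fold and in 4 of 13 that were not. ERSE-II was in 2 of the 11 (Dnajb11 and Herpud1) and in 0 of the 13. Whether either element sets the higher genes apart was not tested. The 220 bases before the start are printed for Creld2, Hspa5, Hsp90b1 and Herpud1, which were past 1.5-fold, and for Calr and Canx, which were not, to show the element on both sides. Sequences run 5′ to 3′ on the gene's strand, and capitals mark the fixed bases of ERSE or, in Herpud1, of ERSE-II. The windows are chr15:88819426-88819645 (plus strand) for Creld2, chr2:34771870-34772089 (plus strand) for Hspa5, chr10:86705445-86705664 (minus strand) for Hsp90b1, chr8:94386209-94386428 (plus strand) for Herpud1, chr8:84846932-84847151 (minus strand) for Calr and chr11:50325674-50325893 (minus strand) for Canx.
Creld2: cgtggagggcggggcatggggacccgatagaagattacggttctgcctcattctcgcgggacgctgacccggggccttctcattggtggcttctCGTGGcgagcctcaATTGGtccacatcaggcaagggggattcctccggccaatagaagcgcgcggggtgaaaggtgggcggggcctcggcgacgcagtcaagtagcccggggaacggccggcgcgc
Hspa5: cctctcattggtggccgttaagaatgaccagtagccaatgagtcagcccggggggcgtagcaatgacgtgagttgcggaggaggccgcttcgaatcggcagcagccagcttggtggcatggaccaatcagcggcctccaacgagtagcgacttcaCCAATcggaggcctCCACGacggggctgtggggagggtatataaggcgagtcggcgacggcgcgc
Hsp90b1: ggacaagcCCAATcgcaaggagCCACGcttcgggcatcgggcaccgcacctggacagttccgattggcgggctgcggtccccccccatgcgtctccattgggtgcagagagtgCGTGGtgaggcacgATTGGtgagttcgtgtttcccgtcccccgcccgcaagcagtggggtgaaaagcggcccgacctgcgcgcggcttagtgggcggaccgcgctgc
Herpud1: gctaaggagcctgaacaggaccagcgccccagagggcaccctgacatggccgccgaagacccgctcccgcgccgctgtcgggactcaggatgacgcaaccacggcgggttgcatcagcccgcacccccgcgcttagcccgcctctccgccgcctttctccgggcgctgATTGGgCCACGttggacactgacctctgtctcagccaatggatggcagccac
Calr: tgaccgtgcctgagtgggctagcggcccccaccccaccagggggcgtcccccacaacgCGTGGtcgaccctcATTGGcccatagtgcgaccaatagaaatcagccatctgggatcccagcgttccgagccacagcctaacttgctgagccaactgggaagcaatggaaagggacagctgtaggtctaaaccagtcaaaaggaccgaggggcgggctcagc
Canx: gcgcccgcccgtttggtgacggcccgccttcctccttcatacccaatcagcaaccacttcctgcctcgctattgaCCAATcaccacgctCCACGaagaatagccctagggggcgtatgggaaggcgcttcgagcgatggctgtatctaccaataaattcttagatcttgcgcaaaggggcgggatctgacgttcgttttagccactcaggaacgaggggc
The first base of the element lies 65 bases before the start in Hspa5, 126 in Creld2, 162 in Calr and 145 in Canx. Hsp90b1 has a copy at 212 and another at 107 bases. Creld2, Calr and the second Hsp90b1 copy carry it on the opposite strand. A match of letters is a description and shows neither binding nor a cause of the difference.

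Cytosolic heat shock proteins, the chaperones of the cytosol and mitochondria, included many higher genes as well. Of 32 listed, 23 were measured and 12 passed the 1.5-fold limit upward, none downward, around a median log2 ratio of 0.60. Fkbp4, a co-chaperone of HSP90, was at 151 CPM in inhibitor and 64.2 CPM in DMSO members, a ratio of 2.35 (interval 2.15 to 2.57). Cacybp was at 213 CPM in inhibitor and 93.2 CPM in DMSO members. Stip1, which joins HSP70 to HSP90, was at 93.9 CPM in inhibitor members against 43.9 CPM in DMSO members. The constitutive HSP70 gene Hspa8 was at 1431 CPM in inhibitor and 735 CPM in DMSO members. Hsp90aa1, Hsp90ab1, Hspa4l, Hspd1, Hspe1, Ahsa1, Ahsa2 and Chordc1 were the others past 1.5-fold. The stress-induced HSP70 genes Hspa1a (240.4 CPM inhibitor, 90.3 CPM DMSO) and Hspa1b (163 CPM inhibitor, 60.4 CPM DMSO) and the small heat shock gene Hspb1 (1449 CPM inhibitor, 364 CPM DMSO) had larger differences but did not count as measured, because smooth muscle cells held more than 5 times as much; they were named after their values were seen. Hspa1a and Hspa1b are near-identical, so their counts are uncertain. Without members rich in Myh11 the list had 11 higher genes and a median of 0.49. The heat shock element, here GAA, TTC and GAA with 2 bases between each, was searched on both strands. It was found in 4 of 18 measured genes of the list with a promoter (Chordc1, Dnajb6, Hspd1 and Hspe1). Among all genes with a promoter it was in 179 of 27025 (0.662%). Within the list it was in 3 of 9 past 1.5-fold and in 1 of 9 that were not, a split that was not tested.

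Other stress genes lay closer to equal levels. All 31 proteasome subunit genes of the list were measured, and their median log2 ratio was 0.30; 2 were past 1.5-fold, Psmb5 (151 CPM inhibitor, 101 CPM DMSO) and Psmd14 (69.5 CPM inhibitor, 46.0 CPM DMSO), and lost this call in 6 and 12 alternatives. Among genes of the integrated stress response, 1 was higher (Mthfd2) and 1 lower (Gadd45a, 11.6 CPM in inhibitor and 24.8 CPM in DMSO members) of 11 measured, with a median of 0.14. Its central transcription factor gene Atf4, named after its values were seen, was at 193 CPM in inhibitor members against 224 CPM in DMSO members, and Ddit3 (CHOP) at 101 CPM in inhibitor and 100.1 CPM in DMSO members, neither past 1.5-fold. Oxidant defence and iron genes had a median of 0.049, with 1 of 18 lower, Gpx3 (a plasma glutathione peroxidase) at 303 CPM in inhibitor and 727 CPM in DMSO members. Adipocytes held Gpx3 at 1249 CPM (inhibitor) and 2162 CPM (DMSO).

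**Figure D3:**
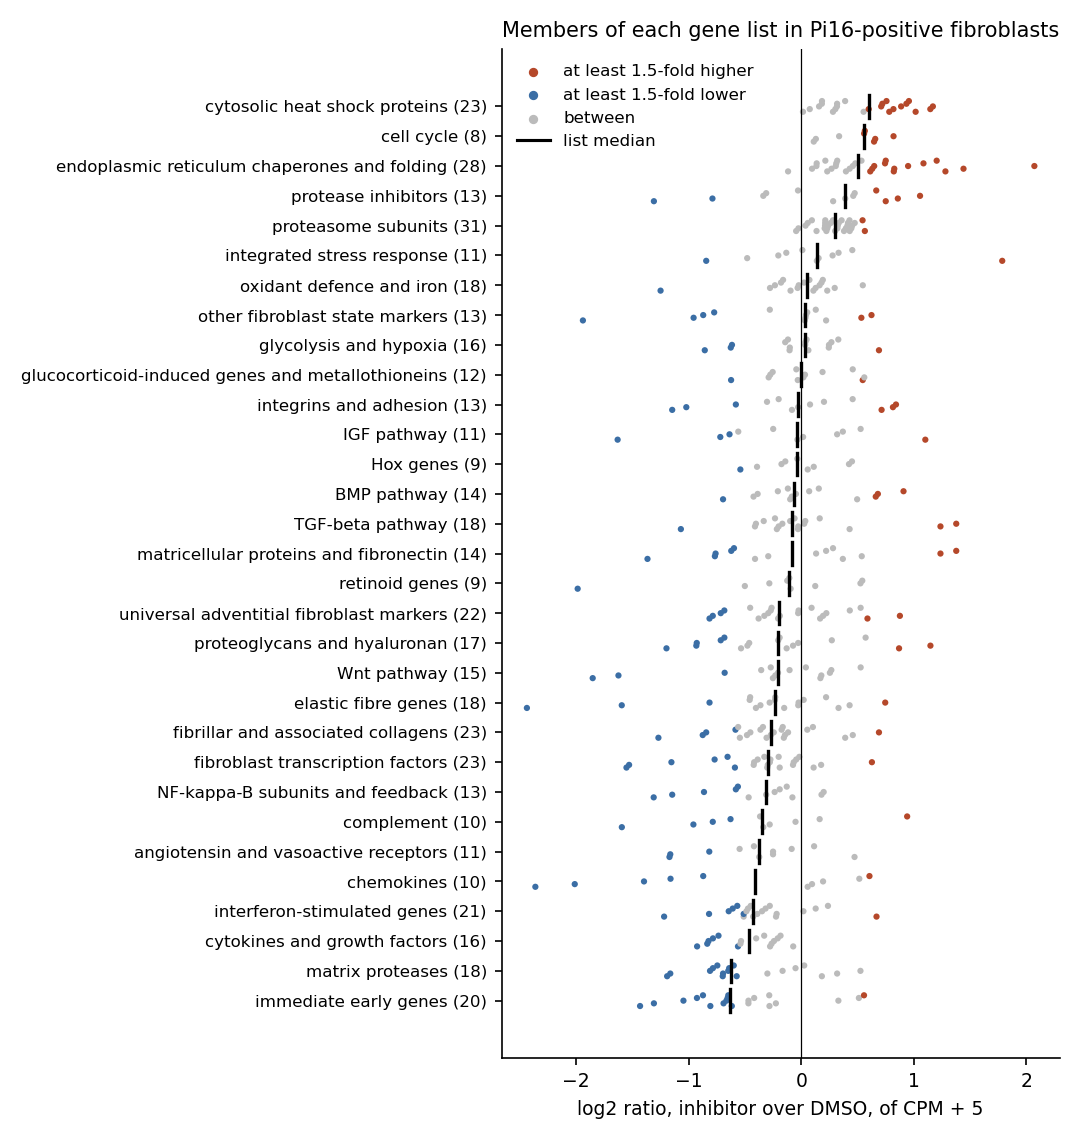
Log2 ratio (inhibitor over DMSO, CPM plus 5) of each measured member of the gene lists with 8 or more measured genes, 1 row per list and 1 point per gene, with the number of measured genes in parentheses. Red points are at least 1.5-fold higher and blue points at least 1.5-fold lower in the inhibitor library; the black bars, list medians, run from -0.63 (immediate early genes) to 0.60 (cytosolic heat shock proteins).

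Genes of the collagen matrix, the main product of these cells, were mostly between the limits or lower. Of 24 collagen and collagen-processing genes 23 were measured, and 4 were lower and 1 higher around a median log2 ratio of -0.27. Col1a1 was at 7611 CPM in inhibitor members against 9426 CPM in DMSO members and Col1a2 at 10722 CPM in inhibitor and 12019 CPM in DMSO members, the chains of type I collagen. Col3a1, the chain of type III collagen, was at 11675 CPM in inhibitor and 17513 CPM in DMSO members, a ratio of 0.667 (interval 0.662 to 0.672) that sat at the 1.5-fold limit and lost the call in 13 alternatives. Col5a3 was at 36.4 CPM in inhibitor members against 94.9 CPM in DMSO members, Col12a1 at 33.6 CPM in inhibitor and 65.8 CPM in DMSO members and Col8a1 at 103 CPM in inhibitor and 189.5 CPM in DMSO members. P4ha1, a subunit of the enzyme that hydroxylates collagen prolines, was higher at 209.5 CPM in inhibitor members against 128 CPM in DMSO members. Among members with 5000 to 20000 UMIs the list had 2 higher and 1 lower genes, a median of -0.14, and ratios of 0.869 for Col3a1 and 0.693 for Col8a1.

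Other matrix genes divided. Of 17 measured proteoglycan and hyaluronan genes, 2 were higher and 5 lower (median -0.20). Omd (osteomodulin) was at 43.4 CPM in inhibitor and 16.8 CPM in DMSO members and Gpc3, a membrane proteoglycan, at 386 CPM in inhibitor and 209 CPM in DMSO members. The lubricating proteoglycan gene Prg4 was at 329.5 CPM in inhibitor members against 763 CPM in DMSO members and Aspn (asporin) at 134 CPM in inhibitor and 261 CPM in DMSO members, while the hyaluronan synthase genes Has1 (58.9 CPM inhibitor, 99.9 CPM DMSO) and Has2 (8.48 CPM inhibitor, 20.7 CPM DMSO) were both lower. Of 18 elastic fibre genes, all measured, Fbln5 (fibulin-5, needed for elastic fibre assembly) was higher at 472 CPM in inhibitor and 279 CPM in DMSO members, and Fbn1, Fbn2 and Efemp1 were lower. Fbn1, the main microfibril protein gene, was at 638 CPM in inhibitor members against 1127 CPM in DMSO members. Elastin itself, Eln, was at 1101 CPM in inhibitor and 874 CPM in DMSO members, a ratio of 1.26 between the limits (named after its values were seen). Among members with 5000 to 20000 UMIs, ratios were 1.46 for Gpc3, 0.775 for Has1, 1.35 for Fbln5 and 0.772 for Fbn1, all short of 1.5-fold.

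Matricellular genes, which signal from the matrix rather than build it, were 2 higher and 5 lower of 14 measured (median -0.081). Ccn2 (connective tissue growth factor) was at 843 CPM in inhibitor and 355 CPM in DMSO members, and smooth muscle cells held more of it, at 3334 CPM (inhibitor) and 2353 CPM (DMSO). The related gene Ccn1 was lower at 127 CPM in inhibitor members against 218 CPM in DMSO members, as were Thbs2 (thrombospondin 2) at 31.7 CPM in inhibitor and 89.6 CPM in DMSO members and Dpt (dermatopontin) at 1436 CPM in inhibitor and 2213 CPM in DMSO members, the last of which lost the call in 9 alternatives. Without members rich in Myh11, the list held 1 higher and 4 lower of 13 measured genes. The myofibroblast list could be read for 4 of 13 genes, since its contractile members were far higher in smooth muscle. All 4 were lower: Runx1 at 58.4 CPM in inhibitor members against 181 CPM in DMSO members, Pdpn (podoplanin) at 101 CPM in inhibitor and 209 CPM in DMSO members, Postn (periostin) at 422 CPM in inhibitor and 722 CPM in DMSO members and Cthrc1 at 127 CPM in inhibitor members against 200.3 CPM in DMSO members. Among members with 5000 to 20000 UMIs, the ratio was 0.939 for Cthrc1, which lost the call in 6 alternatives, and 0.697 for Postn. Acta2, the smooth muscle actin gene that marks myofibroblasts, was at 1771 CPM in inhibitor and 327 CPM in DMSO members and was not counted as measured.

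Matrix proteases, which cut collagen and other matrix proteins and are known for their part in aneurysm, were more often lower in inhibitor members, and none was higher. Of 25 listed genes 18 were measured, and 11 were lower around a median log2 ratio of -0.62. Mmp14, a membrane-bound collagenase (chromosome 14, 54431612 to 54445364, GRCm38), was at 158 CPM in inhibitor and 360.1 CPM in DMSO members, a ratio of 0.438 (interval 0.412 to 0.467). Mmp2, the gelatinase that Mmp14 activates, was at 658 CPM in inhibitor members against 999.6 CPM in DMSO members (named after its values were seen). The aggrecan-cleaving protease gene Adamts5 was at 225 CPM in inhibitor and 398 CPM in DMSO members. Adam12 was at 9.48 CPM in inhibitor and 28.1 CPM in DMSO members and tissue plasminogen activator (Plat) at 182 CPM in inhibitor members against 317 CPM in DMSO members. Mmp3 (stromelysin-1, 1221 CPM in inhibitor and 1265 CPM in DMSO members) and the cathepsin K gene Ctsk (452 CPM inhibitor, 444 CPM DMSO), also named after their values were seen, were between the limits. The count depended on which cells were compared: among members with 5000 to 20000 UMIs, 3 of 17 measured genes were lower, the median was -0.40, and Adamts5 (0.673) and Plat (0.751) no longer passed, while without members rich in Myh11 it was 10 of 18 with a median of -0.58.

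Protease inhibitor genes had the opposite balance, with 4 higher and 2 lower of 13 measured and a median of 0.39. Timp3, a matrix-bound inhibitor of metalloproteinases, was at 975 CPM in inhibitor and 577 CPM in DMSO members. Reck, a membrane-anchored inhibitor of the same enzymes, was at 55.4 CPM in inhibitor members against 33.04 CPM in DMSO members and Wfdc1 at 122 CPM in inhibitor and 56.3 CPM in DMSO members. Cst3 (cystatin C), which inhibits cysteine cathepsins, was at 8437 CPM in inhibitor and 4651 CPM in DMSO members, a ratio of 1.81 (interval 1.79 to 1.83). Serpina3n was lower at 898 CPM in inhibitor members against 1556 CPM in DMSO members and Itih5 at 70.0 CPM in inhibitor and 181 CPM in DMSO members. Among members with 5000 to 20000 UMIs only Wfdc1 remained past 1.5-fold higher, and the ratios were 1.48 for Timp3, 1.48 for Reck and 1.32 for Cst3.

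Genes of innate inflammation were more often lower than higher in inhibitor members. Of 10 measured complement genes 4 were lower and 1 was higher (median -0.35). C3, the central complement component, was at 2776 CPM in inhibitor and 5400.5 CPM in DMSO members, a ratio of 0.514 (interval 0.506 to 0.522). C4b was at 276 CPM in inhibitor members against 844 CPM in DMSO members; its neighbour C4a is near-identical, so reads may be split between them and the value is uncertain. C7, a component of the membrane attack complex, was higher at 439 CPM in inhibitor and 226 CPM in DMSO members. Of 5 measured acute-phase and pattern genes other than Saa3, 4 were lower (median -0.82), among them Cp (ceruloplasmin) at 199 CPM in inhibitor and 428 CPM in DMSO members, Lbp (lipopolysaccharide-binding protein) at 638 CPM in inhibitor members against 1129 CPM in DMSO members and Lcn2 (lipocalin 2) at 54.3 CPM in inhibitor and 83.5 CPM in DMSO members, a call lost in 4 alternatives. Saa3 was held under a limit by the rule, and genes that vary with it among fibroblasts are not independent of the choice of members. With no limit on Saa3 and Il33 the ratio of C3 was 0.621. Among members with 5000 to 20000 UMIs, C7 was at a ratio of 1.48 and Lbp at 0.680, short of 1.5-fold.

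Chemokines were 5 lower and 1 higher of 10 measured, with a median of -0.41. Cxcl12, a chemokine that retains leukocytes and progenitors in tissue, was at 867 CPM in inhibitor and 1591 CPM in DMSO members, a ratio of 0.545 (interval 0.530 to 0.560). The monocyte-attracting chemokine genes Ccl2 (34.1 CPM inhibitor, 97.9 CPM DMSO) and Ccl7 (62.5 CPM inhibitor, 146 CPM DMSO) were lower. Ccl19, which draws T cells and dendritic cells through CCR7, was higher at 156 CPM in inhibitor members against 101 CPM in DMSO members, a call lost in 4 alternatives. Of 16 measured cytokine, growth factor and receptor genes, 6 were lower and none higher (median -0.47), with Il6 at 16.7 CPM in inhibitor and 33.8 CPM in DMSO members, the interleukin-1 receptor gene Il1r1 at 109 CPM in inhibitor and 197 CPM in DMSO members and Angptl4 at 71.6 CPM in inhibitor members against 141 CPM in DMSO members. NF-kappa-B feedback genes were 5 lower of 13 (median -0.31), with Nfkbiz at 30.2 CPM in inhibitor and 82.4 CPM in DMSO members and the adhesion molecule gene Icam1 at 72.8 CPM in inhibitor and 167 CPM in DMSO members. Interferon-stimulated genes were 6 lower and 1 higher of 21 (median -0.43). Iigp1 was at 25.3 CPM in inhibitor members against 65.6 CPM in DMSO members and Irf1 at 25.3 CPM in inhibitor and 48.5 CPM in DMSO members, while Ifi27l2a was higher at 676 CPM in inhibitor and 423 CPM in DMSO members, a call lost in 2 alternatives. Ccl7 was at a ratio of 0.694 among members with 5000 to 20000 UMIs. Removing the limit on Saa3 and Il33, which lets the inflammatory fibroblasts in, gave 8 lower of 13 measured chemokines and a median of -0.98.

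Immediate early genes, transcribed within minutes of a stimulus and also during enzymatic digestion of tissue, were more often lower in inhibitor members. Of 26 listed 20 were measured, with 11 lower, 1 higher and a median log2 ratio of -0.63. Fosb, a subunit of the AP-1 transcription factor, was at 99.3 CPM in inhibitor members against 277 CPM in DMSO members, a ratio of 0.359 (interval 0.332 to 0.388). Dusp1, a phosphatase that switches off MAP kinases, was at 223 CPM in inhibitor and 466 CPM in DMSO members, and Zfp36, which destabilises cytokine mRNAs, at 70.1 CPM in inhibitor and 138 CPM in DMSO members. Myc was at 23.7 CPM in inhibitor members against 66.2 CPM in DMSO members. Nr4a3 was the exception at 40.5 CPM in inhibitor and 25.9 CPM in DMSO members, a call lost in 6 alternatives, and Jun, named after its values were seen, was at 785 CPM in inhibitor and 1089.6 CPM in DMSO members. Members with 5000 to 20000 UMIs had 13 lower genes and a median of -0.82.

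Transcription factor genes of fibroblasts were 1 higher and 6 lower of 23 measured (median -0.30). Runx1, Sox4 (49.0 CPM inhibitor, 151 CPM DMSO) and Sox9 (22.5 CPM inhibitor, 56.1 CPM DMSO), which act in wound and cartilage programmes, were lower, with Ebf2, a factor of adipocyte precursors, at 41.5 CPM in inhibitor members against 74.4 CPM in DMSO members. Twist2 was higher at 34.2 CPM in inhibitor and 20.3 CPM in DMSO members, a call lost in 3 alternatives. Tcf21, known for marking adventitial fibroblasts and named after its values were seen, was at 19.6 CPM in inhibitor and 10.4 CPM in DMSO members, too low in both libraries to count as measured.

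Genes that mark the shared adventitial state lay mostly between the limits, but the share past 1.5-fold was larger than the 11.6% either way over all measured genes. Of 25 listed 22 were measured, with 2 higher, 4 lower and a median log2 ratio of -0.20. Clec3b was at 2363 CPM in inhibitor members against 1751 CPM in DMSO members and Mfap5 at 1933 CPM in inhibitor and 1965 CPM in DMSO members, both between the limits. Pcolce2, which aids procollagen processing, was at 848 CPM in inhibitor and 459.7 CPM in DMSO members, and was found in 69.2% of thinned inhibitor members (65.6 to 72.6%) and 52.7% of thinned DMSO members (49.1 to 56.3%). Anxa3 was higher at 298 CPM in inhibitor members against 196 CPM in DMSO members, a call lost in 7 alternatives. Cd55, a complement-inhibiting surface protein gene, was lower at 105 CPM in inhibitor and 184 CPM in DMSO members, and was found in 10.8% of thinned inhibitor members and 19.2% of thinned DMSO members. Cd248 (endosialin) was at 301 CPM in inhibitor and 487 CPM in DMSO members, a call lost in 3 alternatives. The stem-like surface markers, named after their values were seen, did not pass the fold: Ly6a (Sca-1) was at 2507 CPM in inhibitor members against 2232 CPM in DMSO members, Cd34 at 582 CPM in inhibitor and 546 CPM in DMSO members and Ly6c1 at 726 CPM in inhibitor and 829.6 CPM in DMSO members. Among members with 5000 to 20000 UMIs the adventitial list had 3 higher and 2 lower genes and a median of 0.0049. Among markers of other fibroblast states, 2 were higher and 4 lower of 13 measured: Thbs4 (thrombospondin 4) was at 2.37 CPM in inhibitor members against 23.3 CPM in DMSO members, found in 1 inhibitor and 22 DMSO members, and Comp, a cartilage matrix protein, at 166 CPM in inhibitor and 327 CPM in DMSO members, with Cxcl12 and Apod also lower and Inmt and Angptl7 higher, calls lost in 6 and 4 alternatives; Inmt was at a ratio of 1.01 among members with 5000 to 20000 UMIs.

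**Figure D4:**
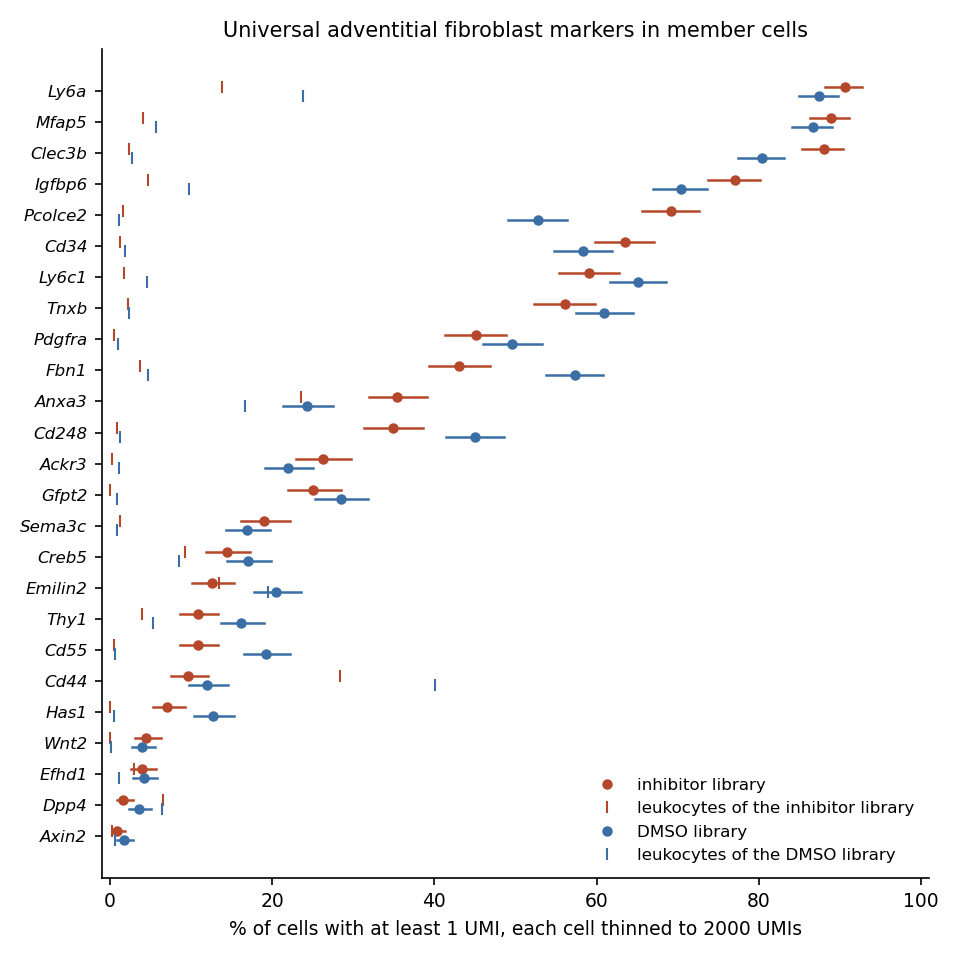
Percentage of member cells with at least 1 UMI of each listed marker of the shared adventitial state, after thinning every cell to 2000 UMIs (694 inhibitor cells in red, 766 DMSO cells in blue; bars are exact 95% Clopper-Pearson intervals and cover counting error only). Vertical ticks give the share in thinned leukocytes of the same library, which should lack most of these genes. Dpp4 and Cd44 lie below that share, and whether leukocytes make them was not tested. Clec3b and Pcolce2 sit higher in the inhibitor library, and Fbn1, Cd248 and Cd55 lower.

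Each of the signalling lists held some genes past the 1.5-fold limit, beside 11.6% of all measured genes past it either way. Of 18 measured genes of the TGF-beta pathway, 2 were higher (Tgfbi and Ccn2) and 1 lower, with a median of -0.079. The lower gene was Tgfbr2, the ligand-binding receptor, at 170.3 CPM in inhibitor and 363 CPM in DMSO members, while the ligand gene Tgfb3, named after its values were seen, was between the limits at 64.0 CPM in inhibitor members against 74.3 CPM in DMSO members. In the BMP pathway 3 of 14 were higher, the ligand Bmp4 (101 CPM inhibitor, 61.8 CPM DMSO), the antagonist Chrdl1 (135 CPM inhibitor, 69.7 CPM DMSO) and the target Id3 (908 CPM inhibitor, 564 CPM DMSO), and 1 was lower, Bmp1, a procollagen protease despite its name, at 234 CPM in inhibitor and 382 CPM in DMSO members; of these, only Chrdl1 stayed past the fold among members with 5000 to 20000 UMIs. In the Wnt pathway 3 of 15 were lower and none higher, all 3 secreted antagonists: Sfrp1, Sfrp4 (1928 CPM inhibitor, 3094 CPM DMSO) and Dkk2 (4.24 CPM inhibitor, 28.4 CPM DMSO). Sfrp2, another of them, was between the limits at 1359 CPM in inhibitor and 1138 CPM in DMSO members (named after its values were seen). In the IGF pathway 1 of 11 measured genes was higher and 3 were lower. Igf1 was lower at 401 CPM in inhibitor members against 626 CPM in DMSO members, and Igfbp3 at 3.74 CPM in inhibitor and 22.1 CPM in DMSO members. Igfbp5, an IGF-binding protein, was higher at 742 CPM in inhibitor and 343 CPM in DMSO members. It lost this call in the 2 alternatives that let Saa3 and Il33 cells in. At 5000 to 20000 UMIs the ratios were 1.13 for Bmp4, 1.31 for Id3, 0.769 for Bmp1, 0.687 for Sfrp4 and 0.702 for Igf1.

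Of genes for angiotensin and other vasoactive signals, 11 of 23 were measured and 3 were lower. Agtr1a, the main angiotensin II receptor of rodent vessels and named after its values were seen, was at 3.49 CPM in inhibitor members against 7.82 CPM in DMSO members, under the 20 CPM needed to count as measured. The prostaglandin synthase gene Ptgs2 was at 30.4 CPM in inhibitor and 57.5 CPM in DMSO members, the adenosine receptor gene Adora2b at 8.23 CPM in inhibitor and 24.7 CPM in DMSO members, and Enpp2, which makes lysophosphatidic acid, at 6.11 CPM in inhibitor members against 20.03 CPM in DMSO members. Retinoid genes had 1 lower of 9 (Aldh1a2), and glucocorticoid-induced genes and metallothioneins 1 higher (Zbtb16, 74.1 CPM in inhibitor and 49.2 CPM in DMSO members) and 1 lower (Sgk1, 68.1 CPM in inhibitor and 108 CPM in DMSO members) of 12. Glycolysis and hypoxia genes had a median of 0.036, with Hk2 (hexokinase 2) at 40.2 CPM in inhibitor members against 76.8 CPM in DMSO members, Hif1a at 69.3 CPM in inhibitor and 109.8 CPM in DMSO members and Adm (adrenomedullin) at 123 CPM in inhibitor and 192 CPM in DMSO members lower and P4ha1 higher of 16 measured; Adm lost the call in 5 alternatives, Zbtb16 in 9 and Sgk1 in 3. Of 5 measured adipogenic genes 3 were lower (median -0.59), and adipocyte RNA differed in the same direction, as given above. For cholesterol synthesis 2 of 19 genes were measured, and Fdps was at 25.7 CPM in inhibitor members against 13.5 CPM in DMSO members. At 5000 to 20000 UMIs, Zbtb16 (1.31), Hk2 (0.709) and Hif1a (0.722) had ratios short of 1.5-fold.

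Adhesion genes were 3 higher and 3 lower of 13 measured. Cd9, a tetraspanin, was at 1087 CPM in inhibitor and 661 CPM in DMSO members, Cdh13 (T-cadherin) at 113 CPM in inhibitor and 62.0 CPM in DMSO members and Itgbl1 at 399.8 CPM in inhibitor members against 221 CPM in DMSO members. The ratios of Cdh13 and Itgbl1 were 1.38 and 1.39 among members with 5000 to 20000 UMIs. Cdh11, the cadherin through which fibroblasts adhere to each other, was lower at 49.0 CPM in inhibitor and 105 CPM in DMSO members, and Vcam1 was at 203 CPM in inhibitor and 307 CPM in DMSO members, at the limit, a call lost in 10 alternatives. Hox genes, whose expression follows position along the body axis, had a median of -0.035, with 1 of 9 past the fold (Hoxa5, 40.2 CPM in inhibitor members against 60.7 CPM in DMSO members, lost in 10 alternatives). Of the nuclear non-coding RNAs, Malat1 was at 24910.5 CPM in inhibitor and 25824 CPM in DMSO members and Neat1, the scaffold of paraspeckles, was lower at 267 CPM in inhibitor and 447 CPM in DMSO members.

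Cell cycle genes were 5 higher and 0 lower of 8 measured (median 0.56). Birc5, Cenpf and Tyms reached the 20 CPM needed to count as measured in the inhibitor library only, where they were higher. The count and the median therefore depend in part on that limit. Ccnd1 (cyclin D1), found in 253 inhibitor and 211 DMSO members, was at 83.1 CPM in inhibitor members against 50.8 CPM in DMSO members, and Tyms (thymidylate synthase), found in 117 inhibitor and 174 DMSO members, at 29.4 CPM in inhibitor and 18.3 CPM in DMSO members; they lost the call in 2 and 7 alternatives. The RNA of Birc5 and Cenpf came from few cells. Birc5 (survivin) was at 20.5 CPM in inhibitor and 9.42 CPM in DMSO members, in 26 inhibitor and 19 DMSO members. Cenpf was at 22.5 CPM in inhibitor members against 12.5 CPM in DMSO members, in 16 inhibitor and 17 DMSO members. At least 2 UMIs of Top2a and Mki67, markers of dividing cells, were present in 13 inhibitor members (1.79%) and 22 DMSO members (2.76%), an order opposite to that of the summed levels. Cenpf turned to a log2 ratio of -0.36 with Dcn at 0.8% of UMIs and -0.16 with thinned cells, and Birc5 to -0.048 with no limits on the other fibroblast genes.

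The variation among members was measured gene by gene. In cells thinned to 2000 UMIs the median variance over mean was 1.14 in inhibitor members and 1.09 in DMSO members over 1246 genes, where 1 is the value that counting alone gives. Mgp (matrix Gla protein, an inhibitor of calcification) stood highest in both libraries, at 41.1 in inhibitor and 48.7 in DMSO members, while its summed level was alike at 8798 CPM in inhibitor and 8995 CPM in DMSO members. Ranked by the lower of both libraries' values, Col3a1 followed, at 20.4 in inhibitor and 20.1 in DMSO members, and then Cst3, at 17.9 in inhibitor and 19.3 in DMSO members. Sparc stood second within the inhibitor library (22.6, against 13.6 in DMSO members) and Gm42418 within the DMSO library (10.6 in inhibitor members, against 26.2). Col1a1, Col1a2, Gsn, the nuclear RNA Malat1 and the ferritin gene Fth1 completed the 10 highest. At equal relative variation this measure is larger for abundant genes, so the ranking favours them. The means of these 10 genes ran from 7.36 (Gm42418, inhibitor) to 54.5 (Malat1, DMSO) UMIs per thinned cell, where 0.2 was enough to be ranked. Gsn (gelsolin, which severs actin filaments) was at 9795 CPM in inhibitor and 5067 CPM in DMSO members, and its median per cell was 97.3 UMIs per 10000 in inhibitor members and 44.3 in DMSO members. Differences in summed levels were present in the typical cell for several genes. The median inhibitor member held 7.05 Manf UMIs per 10000 and the median DMSO member 2.68; for C3 these were 16.1 (inhibitor) and 40.5 (DMSO). Creld2 was found in 65.3% of inhibitor members and 41.5% of DMSO members, although the inhibitor members were shallower.

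**Figure D5:**
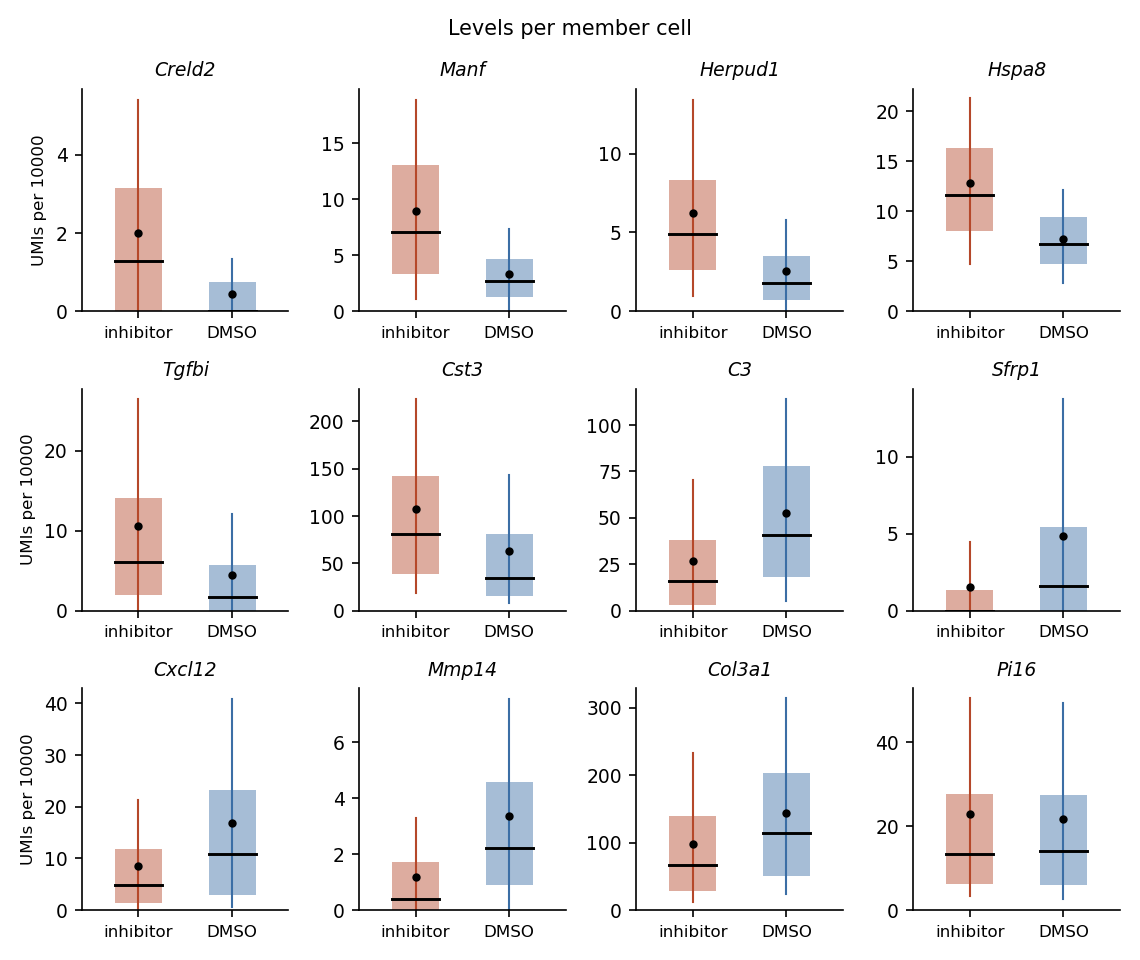
Levels of 12 genes in single member cells, as UMIs per 10000 UMIs of the cell, in the inhibitor library (left, red, 726 cells) and the DMSO library (right, blue, 798 cells). Boxes span the quartiles, thin lines the 10th to 90th percentile, black bars are medians and black dots means over cells; Manf, Herpud1 and Cst3 sit higher in the inhibitor library and C3, Sfrp1 and Mmp14 lower, while Pi16, used by the rule, overlaps.

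Set beside the other fibroblast states of the same libraries, members differed in genes beyond those of the rule; since the cells were chosen by expression, these values describe them and test nothing. Fibroblasts with Rbp4 and Fmod at or over the limit and fewer than 2 Pi16 UMIs numbered 185 (inhibitor) and 30 (DMSO). Over these, members were higher in Cd55, Lrrn4cl, Cthrc1, Cxcl14, Prg4, Emilin2, Lbp and Tmem100 in both libraries. Prg4 was at 329.5 CPM in inhibitor members and 38.1 CPM in their Rbp4 and Fmod fibroblasts, against 763 CPM in DMSO members and 112 CPM in theirs. Members were lower in Smoc1, Vwc2, Ntf3, Ptprd, Cst3, Cpe, Tmem204 and Gm26870. Cst3 was at 8437 CPM in inhibitor members and 28598 CPM in their Rbp4 and Fmod fibroblasts, against 4651 CPM in DMSO members and 14426 CPM in theirs. Several of the genes that were lower in inhibitor members (Cd55, Prg4, Cthrc1 and Lbp) are among those that are low in Rbp4 and Fmod fibroblasts, and Cst3, which was higher, is among those that are high in them.

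Fibroblasts with Saa3 and Il33 at or over the limit, whatever their Pi16, numbered 179 (inhibitor) and 633 (DMSO). Members were higher than these in Tgfbi, Inmt, Fmo2, Pamr1, Gpnmb, Galnt15, Akap12 and Pcolce2, and lower in Cxcl14, Lcn2, Ccl2, Chl1, Ccl9, Ccl7, Ptx3 and Slc16a1. Tgfbi was at 825 CPM in inhibitor members and 178 CPM in their Saa3 and Il33 fibroblasts, against 314 CPM in DMSO members and 80.7 CPM in theirs. Ccl2 was at 34.1 CPM in inhibitor members and 476 CPM in their Saa3 and Il33 fibroblasts, against 97.9 CPM in DMSO members and 431 CPM in theirs.

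Some lists had medians of the same sign in other cell populations and others did not. The free RNA limit was applied to members only, so the genes behind a median can differ between populations. The median log2 ratio of the cytosolic heat shock list was 0.60 in members, beside 0.66 in Saa3 and Il33 fibroblasts, 0.59 in the remaining Dcn cells and 1.44 in smooth muscle cells. That of the endoplasmic reticulum list was 0.51 in members, beside 0.65 in Saa3 and Il33 fibroblasts and 0.52 in the remaining Dcn cells. Outside the fibroblasts it was 0.47 in endothelial cells, 0.36 in Schwann cells, 0.17 in leukocytes and 0.071 in smooth muscle cells. Immediate early genes ranged from -0.89 (remaining Dcn cells) to -0.57 (smooth muscle) in the other populations, and matrix proteases from -0.58 (leukocytes) to -0.34 (Saa3 and Il33 fibroblasts). Chemokines, at -0.41 in members, ranged there from -2.31 (Schwann cells) to -0.24 (Saa3 and Il33 fibroblasts). Complement genes, at -0.35 in members, ranged from -0.83 (smooth muscle) to -0.13 (Saa3 and Il33 fibroblasts). Acute-phase genes, at -0.82 in members, ranged from -1.81 (smooth muscle) to 0.078 (endothelial cells). The adventitial markers had a median of -0.20 in members, beside 0.15 in Saa3 and Il33 fibroblasts and -0.36 in the remaining Dcn cells. Cell cycle genes were at 0.56 in members, beside 0.11 in Saa3 and Il33 fibroblasts and -0.077 in the remaining Dcn cells, with 5 to 8 measured. Myofibroblast genes were at -0.89 in members, where the free RNA limit left 4 genes. Without that limit they were at 0.18 in Saa3 and Il33 fibroblasts (10 genes) and 0.42 in the remaining Dcn cells (12 genes). These signs cannot be compared, since the median in members also turned positive without that limit. Protease inhibitors were at 0.39 in members, beside 0.046 in Saa3 and Il33 fibroblasts and 0.0021 in the remaining Dcn cells. Of 167 named genes measured in members, 0 were past 1.5-fold in the opposite direction in Saa3 and Il33 fibroblasts or the remaining Dcn cells. Genes between the limits in members, or too low in the other population, could not count as opposite. Rbp4 and Fmod fibroblasts were not compared, since their 30 DMSO cells were under the minimum of 50. No test of a difference between populations is possible with 1 library each.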

How the data were processed

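The deposited matrices are unnormalized counts of UMIs for each gene in each barcode. They were written by Cell Ranger 6.1.1, per the file headers; the submitters' processing notes name GRCm38 and Seurat. The listed barcodes hold 500 UMIs or more. Members were picked by the stated rule, their counts were summed per library, and the sums were scaled to 1000000 UMIs (CPM). The members and gene lists were chosen with earlier results of these data known. A gene counted as measured if it reached 20 CPM in 1 library and 20 UMIs in the sum of both and passed the free RNA limit. For that limit its level had to be no less than 20% of the highest in smooth muscle cells, leukocytes, endothelial cells, adipocytes or Schwann cells. Other fibroblasts were not used for it. Ratios carry exact conditional Poisson 95% intervals and shares exact Clopper-Pearson intervals, which cover counting error only; 1 UMI was 0.125 CPM in inhibitor members and 0.0798 CPM in DMSO members. Named genes were the rule and marker genes, the 12 highest and 12 lowest ratios at 50 CPM or more and up to 4 per list and direction. The 8 furthest from other fibroblasts each way and the 10 with the highest variance over mean were added. Others are said to be named after their values were seen. One gene that this choice named is not reported here. Doublets were scored with Scrublet in scanpy 1.11.5 and kept. The threshold of 0.2144 found automatically in the inhibitor library was used for both, because that of the DMSO library (0.6589) marked no cell. The ratio and interval were tried on simulated counts that held counting error only. That trial cannot show how the interval behaves where a gene's UMIs sit in few cells. Alternatives changed the rule, cell filters, scaling (edgeR 4.0.16 for TMM), low-value limits and added constants. Python 3.11.15, numpy 2.4.6, scipy 1.17.1, pandas 2.3.3 and R 4.3.3 were used. Promoters came from RefSeq tables (GRCm38.p6) and gene spans from GENCODE M21.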

Additional observations from a re-analysis of the deposited data

How the results depend on the processing

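With 1 library per group, the limits are the missing replicates and the unequal depth of the members, so every alternative below compares the same 2 libraries. No paired analysis was possible because each group has 1 library and no test. Of the alternatives, 5 were added after the data were seen: 1 limit removed at a time, the rule applied after thinning, leaving out members rich in Myh11, and members with 5000 to 20000 UMIs. Each of 173 named genes was recomputed in 23 settings. Of these values, 3724 kept their call (higher, lower or between the limits), 212 lost a call and 38 gained one in the direction of the main ratio. Another 2, both of Cxcl14, passed the limit in the direction opposite to its main ratio. The sign of genes that stayed between the limits was not followed. Settings that changed only the added constant, the low-value limit or the free RNA limit kept every call by construction. Among genes with a call, 3 values changed sign. Those 3 were Cenpf with Dcn at 0.8% of UMIs (-0.36), Cenpf in thinned cells (-0.16) and Birc5 with no limits on other fibroblast genes (-0.048). The log2 ratio of the members' share (inhibitor over DMSO) moved to 0.27 with neither limit, 0.74 without that on Rbp4 and Fmod, -0.44 without that on Saa3 and Il33 and -0.22 when the rule was applied to cells thinned to 4000 UMIs (8.36% inhibitor, 9.75% DMSO). Genes past 1.5-fold numbered 1036 higher and 1349 lower of 20219 with no low-value limit, and 103 higher and 120 lower of 1626 at 100 CPM, since fewer or more genes were tested. List medians stayed within their spread in 813 settings and moved in 10; the myofibroblast list turned to 1.16 without the free RNA limit, which lets in its contractile genes. The cause of the other changes was not tested.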

Other observations

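On chromosome 16 (GRCm38), the neighbours Ahsg (22891277 to 22899449), which encodes the plasma protein fetuin-A, and Kng2 (22985854 to 23029482), a kininogen gene, were both lower. Ahsg was at 9.98 CPM in inhibitor and 51.9 CPM in DMSO members, and was found in 4.55% of inhibitor members and 18.5% of DMSO members. Kng2 was found in 9.78% of inhibitor members and 39.6% of DMSO members. The pair was noticed after the values were seen, and no test is possible with 1 library per group.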
